A study of Mus musculus with 5 samples.

Results

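T and natural killer (NK) lymphocytes were described through 39 genes known to mark or serve these cells, in RNA from mouse tumours with and without regulatory T (Treg) cell ablation. The genes were taken from a list of symbols and joined to the Ensembl identifiers of the deposited counts. All 39 were found among the 46983 genes counted. The list covers receptors at the lymphocyte surface, the first enzymes and adaptors of antigen receptor signalling, transcription factors, cytokine receptors, cytoskeletal and homing genes, and the GIMAP GTPases. EO771 tumours, from a mouse mammary carcinoma line, were grown orthotopically in C57/BL6 mice. The Treg-ablated tumours received 2 doses of diphtheria toxin at 50 µg/kg, and on day 4 cells labelled as tumour-associated macrophages were sorted as CD45+ CD11B+ Ly6G- F4/80+. Control tumours were left untreated, so an effect of the toxin and one of Treg cell loss cannot be told apart. A sort day is recorded only for the Treg-ablated tumours, so an effect of timing cannot be told apart either. There were 2 Treg-ablated and 3 control libraries. The allele or transgene that made Treg cells sensitive to the toxin, the driving promoter, and the age of the mice are not given in the sources used here. Nothing in the labels ties each library to its own animal, and the p-values hence reflect library spread that could be technical.

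T cells recognise antigen through the T cell receptor and its CD3 chains. Engagement of the receptor activates the kinase LCK and then ZAP-70, which phosphorylates the adaptor LAT, and co-receptors such as CD28 and CD2 tune the response. NK cells lack a rearranged antigen receptor but share many of these genes, including the interleukin-2 receptor β chain, CD96 and CD226. Both cell types enter tumours, where they can recognise or kill tumour cells.

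The libraries held 13122668 to 20156835 counts each. The gate was meant to return macrophages, yet transcripts of other cells were present in all 5 libraries. The 12 fibroblast markers summed to between 19271 and 24060 CPM (counts scaled by effective library size) and the 12 macrophage and gate genes to between 251 and 449 CPM. Ptprc, which encodes the CD45 of the gate, had between 22.1 and 33.0 CPM, and Adgre1, which encodes F4/80, between 5.73 and 9.87 CPM. In such bulk samples more lymphocytes, more RNA per lymphocyte and expression of the listed genes by other cells cannot be told apart.

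Most of the lymphocyte genes were higher after Treg ablation. Of the 39, 36 had enough counts to be tested with edgeR's quasi-likelihood test. Of these, 29 rose at an adjusted p under 0.05, 0 fell and 7 did not pass. The number lower was also 0 at an unadjusted p under 0.05 and with DESeq2. Among all 14580 genes tested, 13.5% were higher and 12.3% were lower by the same rule. The 39 genes were chosen with earlier results of these data known, so the contrast with all genes is a description only. The median log2 fold change (log2FC) of the 36 was 1.33, against -0.01 over all genes tested, and 35 of the 36 values were positive. Both Treg-ablated libraries lay above all 3 controls for 32 of the 36, compared with 26.9% of all genes tested.

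**Figure D1:**
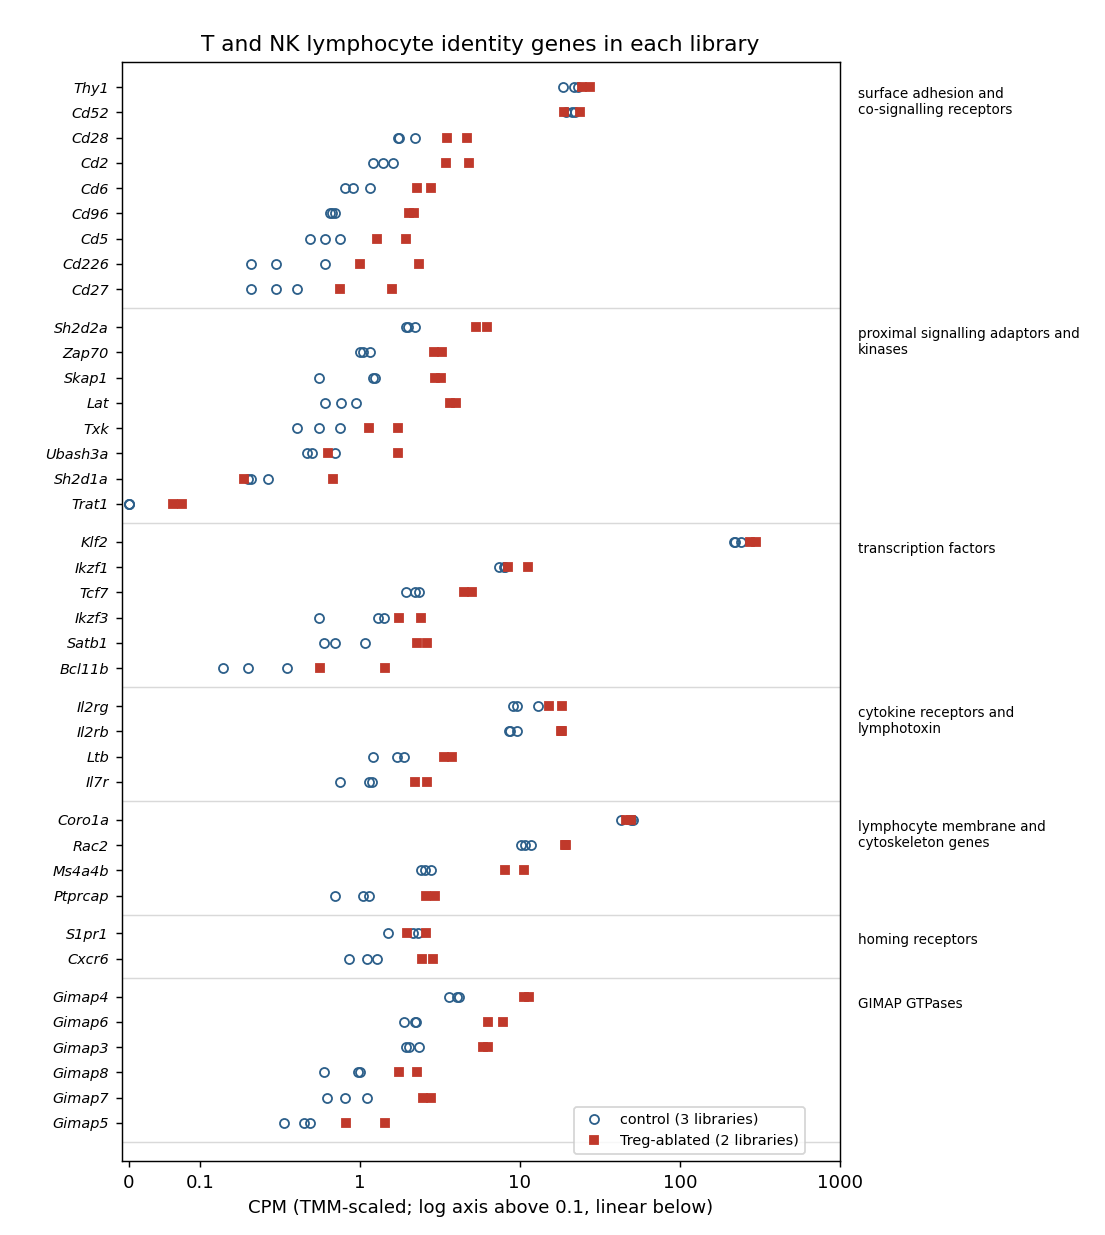
CPM of each of the 39 lymphocyte genes (rows, grouped by role) in each library, on an axis that is logarithmic above 0.1 CPM and linear below. Filled squares are the 2 Treg-ablated libraries and open circles the 3 controls. For most genes the squares lie to the right of every circle, while those of Cd52, Coro1a, S1pr1, Ubash3a and Sh2d1a are mixed with the circles.

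A stricter test asked which changes exceeded a set size. Tested against a fold of 1.5, 9 of the 36 were still called higher (Cd2, Lat, Zap70, Sh2d2a, Il2rb, Ms4a4b, Gimap3, Gimap4 and Gimap6), where 0.672% of all genes were. Some genes could pass the filter on low counts only through the Treg-ablated libraries. For Cd5, Cd27, Cd226, Txk and Gimap5 the filter's minimum was met in fewer than 2 controls, and all 5 were called higher. Leaving them aside, 24 of 31 were higher, with a median log2 fold change of 1.26. Calls depended on single libraries for some members: 21 of the 29 were called higher without each library in turn. With control replicate 2 left out 22 of the 29 remained, while the calls over all genes fell from 1971 to 829.

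**Figure D2:**
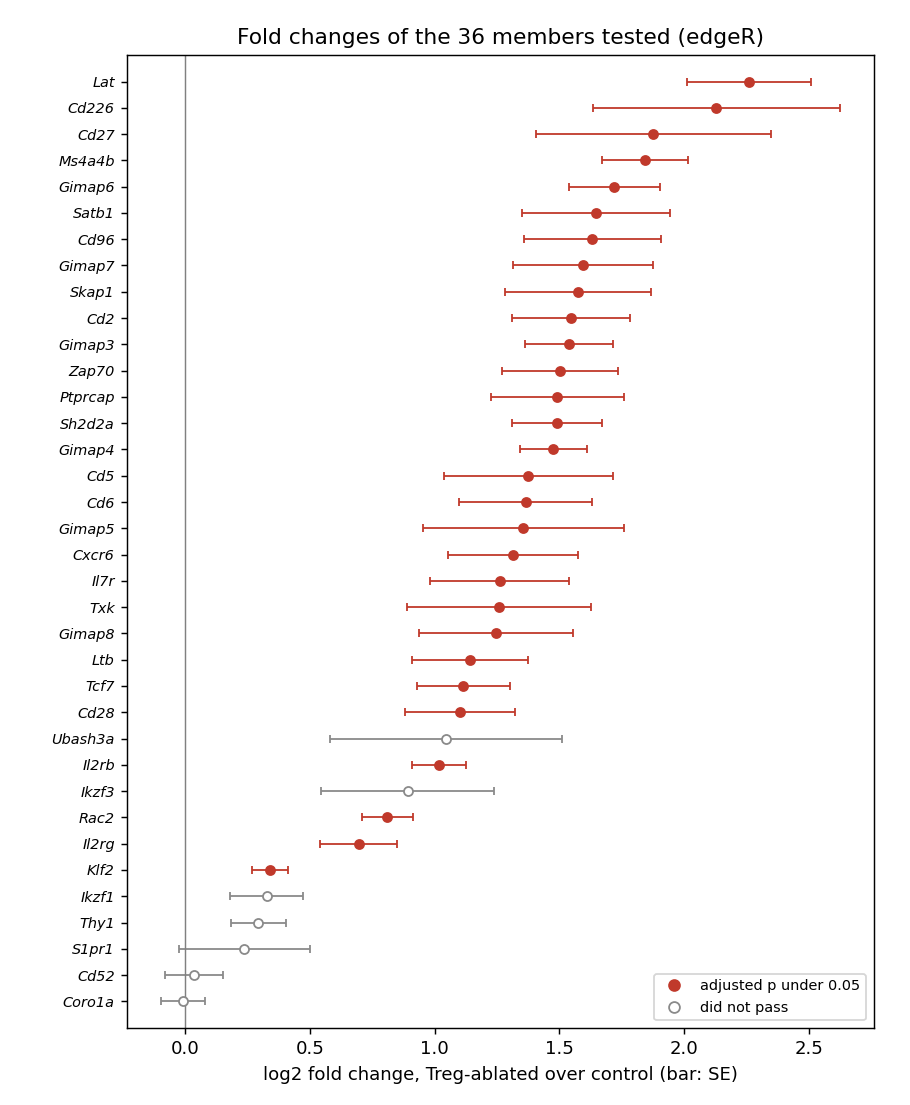
Log2 fold change, Treg-ablated over control, of the 36 lymphocyte genes tested, ordered by fold change, with bars for the standard error of the edgeR fit. Filled points passed an adjusted p under 0.05 (29 genes). The values run from -0.01 for Coro1a to 2.26 for Lat.

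Among 9 surface receptors, 7 rose and 2 did not pass, with a median log2 fold change of 1.37. CD2 is an adhesion and co-stimulatory receptor of T and NK cells. Cd2 was at 3.47 and 4.83 CPM in Treg-ablated replicates 1 and 2 and at 1.21, 1.40 and 1.602 CPM in controls 1, 2 and 3. Both Treg-ablated values lay above every control, and Cd2 rose (log2FC 1.55, SE 0.237, adjusted p = 0.00183). CD96 is a receptor of T and NK cells that binds the poliovirus receptor. Cd96 had 2.02 and 2.19 CPM in the Treg-ablated and 0.672, 0.651 and 0.697 CPM in the control libraries. Replicates of each group lay close together, and the gene rose 3.10-fold (log2FC 1.63, SE 0.276, adjusted p = 0.00273). CD28 is the co-stimulatory receptor of T cells for CD80 and CD86. Cd28 was measured at 3.53 and 4.68 CPM after ablation, and at 2.22, 1.75 and 1.74 CPM in controls. The groups did not overlap, and Cd28 rose (log2FC 1.10, SE 0.221, adjusted p = 0.00596).

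CD5 and CD6 are related scavenger-family receptors that damp T cell receptor signals, and their genes lie 50.4 kb apart on chromosome 19. For Cd6 the Treg-ablated libraries gave 2.27 and 2.79 CPM and the controls 0.806, 1.15 and 0.906 CPM. Cd5 reached 1.95 and 1.28 CPM in Treg-ablated libraries, with 0.605, 0.751 and 0.488 CPM in controls. Neither gene overlapped between groups. Cd6 rose (log2FC 1.36, SE 0.268, adjusted p = 0.00542), and so did Cd5 (log2FC 1.37, SE 0.339, adjusted p = 0.0151), although in Cd5 the first Treg-ablated library was 1.52 times as high as the second. The call of Cd5 ended without that library (adjusted p = 0.144) and with DESeq2 (adjusted p = 0.0535).

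Cd27, a co-stimulatory receptor of the tumour necrosis factor receptor family, and Cd226, an activating receptor of T and NK cells, had the lowest levels per kilobase of exon among the surface genes in the controls. Cd27 was at 0.757 and 1.58 CPM in Treg-ablated replicates 1 and 2 and at 0.403, 0.3005 and 0.209 CPM in controls 1, 2 and 3. Cd226 had 1.01 and 2.34 CPM in the Treg-ablated and 0.605, 0.3005 and 0.209 CPM in the control libraries. In both, the second Treg-ablated library held more than the first, by 2.09 and 2.32 times. Cd27 rose (log2FC 1.88, SE 0.472, adjusted p = 0.0163) and Cd226 rose (log2FC 2.13, SE 0.495, adjusted p = 0.0118). Neither call held without Treg-ablated replicate 2 (adjusted p = 0.148 for Cd27 and 0.0914 for Cd226) or without control replicate 2 (adjusted p = 0.0702 and 0.0673). The log2 fold change of Cd226 was 1.45 without Treg-ablated replicate 2. The deposited exons of Cd27 share 129 bases with a microRNA gene, Mir8113.

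The surface genes that did not pass were Cd52 and Thy1. CD52 is a short surface glycoprotein of lymphocytes and many myeloid cells. Cd52 was measured at 23.8 and 18.9 CPM after ablation, and at 19.3, 21.3 and 22.2 CPM in controls. The groups overlapped, with log2FC 0.03 (SE 0.115, adjusted p = 0.851). Its sign was negative without Treg-ablated replicate 1 (-0.15) and without control replicate 1 (-0.02). Thy1 encodes a surface glycoprotein of T cells that fibroblasts also express. For Thy1 the Treg-ablated libraries gave 27.5 and 24.4 CPM and the controls 18.6, 23.0 and 21.9 CPM. Both Treg-ablated values were above the controls, by little, and the gene did not pass (log2FC 0.29, SE 0.109, adjusted p = 0.0726). With a correction for GC content it passed (log2FC 0.43, adjusted p = 0.0148).

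Of 8 genes for proximal signalling, 6 were tested, 5 rose and 1 did not pass, with a median log2 fold change of 1.5. Lat, on chromosome 7 (126363824 to 126369570, GRCm38, minus strand), encodes the adaptor phosphorylated by ZAP-70. Lat reached 3.66 and 4.00 CPM in Treg-ablated libraries, with 0.605, 0.952 and 0.766 CPM in controls. This was the largest change among the 36: Lat rose 4.79-fold (log2FC 2.26, SE 0.249, adjusted p = 0.000391). Zap70 encodes the kinase itself, a member of the Syk family. Zap70 was at 2.90 and 3.24 CPM in Treg-ablated replicates 1 and 2 and at 1.01, 1.15 and 1.05 CPM in controls 1, 2 and 3. Its groups were far apart, and it rose 2.83-fold (log2FC 1.502, SE 0.232, adjusted p = 0.00189). Sh2d2a encodes TSAd, an adaptor that binds LCK. Sh2d2a had 5.36 and 6.26 CPM in the Treg-ablated and 2.22, 2.003 and 1.95 CPM in the control libraries. It rose 2.81-fold (log2FC 1.49, SE 0.180, adjusted p = 0.000604). Skap1 encodes an adaptor that links the receptor to integrin adhesion. Skap1 was measured at 3.22 and 2.94 CPM after ablation, and at 1.21, 1.25 and 0.557 CPM in controls. Control replicate 3 was the lowest, the groups did not overlap, and the gene rose (log2FC 1.57, SE 0.293, adjusted p = 0.00414).

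The remaining signalling genes had few counts. TXK is a Tec-family kinase of T cells. For Txk the Treg-ablated libraries gave 1.13 and 1.73 CPM and the controls 0.403, 0.751 and 0.557 CPM. Txk rose (log2FC 1.26, SE 0.368, adjusted p = 0.0302), but the call ended without Treg-ablated replicate 2 (adjusted p = 0.187), without each control in turn (adjusted p = 0.0734, 0.0541 and 0.0514 without controls 1, 2 and 3), with DESeq2 (0.0950) and with the GC correction (0.0520). Ubash3a encodes a suppressor of T cell receptor signalling. Ubash3a reached 0.630 and 1.73 CPM in Treg-ablated libraries, with 0.470, 0.501 and 0.697 CPM in controls. The Treg-ablated libraries differed 2.75 times from each other and overlapped the controls, and Ubash3a did not pass (log2FC 1.05, SE 0.465, adjusted p = 0.123). Without Treg-ablated replicate 1 it passed, with a log2 fold change of 1.64 (adjusted p = 0.0197), whereas without Treg-ablated replicate 2 the log2 fold change was 0.20.

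Sh2d1a and Trat1 were not tested for want of counts. Sh2d1a, which encodes the adaptor SAP, had 3 and 9 counts in the Treg-ablated and 4, 4 and 3 in the control libraries. The ratio of the summed counts, scaled by library size, was 1.84 and its exact 95% interval, for counting error alone, ran from 0.745 to 4.61, so no difference could be detected at such depth. Its exons share 1465 of 5505 bases with Tenm1, where reads of the 2 genes cannot be separated. Trat1, which encodes an adaptor of the T cell receptor complex, had 1 count in each Treg-ablated library and 0 in the controls. Both groups were under a floor of 3 counts, so no fold is given.

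Of the 6 transcription factor genes, 3 of 5 tested rose, with a median log2 fold change of 0.89. Tcf7 encodes TCF-1, a factor of T cell development and of memory-like T cells. Tcf7 was at 4.48 and 5.05 CPM in Treg-ablated replicates 1 and 2 and at 1.95, 2.35 and 2.23 CPM in controls 1, 2 and 3. Replicates lay close together in both groups, and the gene rose (log2FC 1.11, SE 0.187, adjusted p = 0.00267). Satb1 encodes a chromatin organiser of T cell development. Satb1 had 2.27 and 2.64 CPM in the Treg-ablated and 1.07, 0.601 and 0.697 CPM in the control libraries. It rose 3.13-fold (log2FC 1.65, SE 0.298, adjusted p = 0.00371). Klf2 encodes a factor of naive and circulating T cells that macrophages and endothelial cells also express. Klf2 was measured at 301 and 275 CPM after ablation, and at 219, 243 and 220 CPM in controls. The change was small against a high level: Klf2 rose 1.26-fold (log2FC 0.34, SE 0.0734, adjusted p = 0.00867).

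The Ikaros family genes did not pass. Ikzf1 encodes Ikaros, which is expressed throughout the blood lineages. For Ikzf1 the Treg-ablated libraries gave 8.38 and 11.3 CPM and the controls 7.99, 7.41 and 8.08 CPM. The difference rested on the second Treg-ablated library (log2FC 0.33, SE 0.147, adjusted p = 0.129). Without Treg-ablated replicate 1 the gene passed with a log2 fold change of 0.54 (adjusted p = 0.0269), and without replicate 2 the value was 0.11. Ikzf3 encodes Aiolos, a factor of mature lymphocytes. Ikzf3 reached 1.77 and 2.41 CPM in Treg-ablated libraries, with 1.41, 1.30 and 0.557 CPM in controls. Its lowest Treg-ablated library stood only a little above the highest control (log2FC 0.89, SE 0.347, adjusted p = 0.0826). It passed when all genes with a count were tested (adjusted p = 0.0193).

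Bcl11b, which encodes a factor needed for T cell commitment, was left out by the filter, with 9 and 19 counts in the Treg-ablated and 3, 7 and 2 in the control libraries. The highest control, the deepest library, still held fewer counts than either Treg-ablated one. The ratio of the summed counts, scaled by library size, was 3.94, and its exact 95% interval, for counting error alone, ran from 1.94 to 8.51. In a fit of all genes with at least 1 count in any library its log2 fold change was 1.95 (edgeR adjusted p = 0.00225).

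All 4 genes of cytokine signalling rose, with a median log2 fold change of 1.08. The β chain of the interleukin-2 and interleukin-15 receptors is encoded by Il2rb on chromosome 15 (78480553 to 78495066, minus strand). Il2rb was at 18.2 and 18.3 CPM in Treg-ablated replicates 1 and 2 and at 8.67, 9.67 and 8.57 CPM in controls 1, 2 and 3. The Treg-ablated libraries were nearly equal, and the gene rose 2.02-fold (log2FC 1.02, SE 0.106, adjusted p = 0.000306). Il2rg encodes the common γ chain, shared by the receptors of several interleukins. Il2rg had 18.3 and 15.3 CPM in the Treg-ablated and 9.61, 9.01 and 12.96 CPM in the control libraries. Control replicate 3 was the highest of its group, yet below both Treg-ablated libraries, and Il2rg rose 1.62-fold (log2FC 0.69, SE 0.155, adjusted p = 0.0101). Its exons share 728 of 2387 bases with the gene model Gm20489. Il7r encodes the interleukin-7 receptor, on which T cell survival depends. Il7r was measured at 2.21 and 2.64 CPM after ablation, and at 1.14, 0.751 and 1.18 CPM in controls. It rose (log2FC 1.26, SE 0.280, adjusted p = 0.00975). Without control replicate 2 the calls of Il2rg (adjusted p = 0.0625) and Il7r (adjusted p = 0.0545) ended, which left 2 of the 4 called. Ltb encodes lymphotoxin β, a membrane-bound cytokine of lymphocytes. For Ltb the Treg-ablated libraries gave 3.34 and 3.77 CPM and the controls 1.21, 1.70 and 1.88 CPM. The groups did not overlap, and Ltb rose (log2FC 1.14, SE 0.232, adjusted p = 0.00644).

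Among 4 membrane and cytoskeletal genes, 3 rose and 1 did not pass, with a median log2 fold change of 1.15. Ms4a4b, on chromosome 19 (11443553 to 11463549), encodes a four-span membrane protein of mouse T cells. Ms4a4b reached 8.13 and 10.6 CPM in Treg-ablated libraries, with 2.42, 2.55 and 2.79 CPM in controls. It rose 3.59-fold (log2FC 1.84, SE 0.172, adjusted p = 0.000174), and it has related genes with which reads may be shared. Ptprcap encodes a partner protein of CD45 in lymphocytes. Ptprcap was at 2.58 and 2.94 CPM in Treg-ablated replicates 1 and 2 and at 1.14, 1.05 and 0.697 CPM in controls 1, 2 and 3. It rose 2.81-fold (log2FC 1.49, SE 0.266, adjusted p = 0.00347). Rac2 encodes a small GTPase of blood cells and lies 64.1 kb from Il2rb. Rac2 had 19.0 and 19.3 CPM in the Treg-ablated and 10.2, 11.7 and 10.8 CPM in the control libraries. It rose 1.75-fold (log2FC 0.81, SE 0.104, adjusted p = 0.000785). Coro1a encodes coronin 1A, an actin regulator of T cells and of other leukocytes. Coro1a was measured at 49.2 and 45.9 CPM after ablation, and at 43.2, 50.8 and 49.5 CPM in controls. The groups overlapped and the log2FC was -0.01 (SE 0.0870, adjusted p = 0.946). Its sign changed with library size alone (0.01), the GC correction (0.14), and on leaving out Treg-ablated replicate 2 (0.04) or control 2 (0.04) or 3 (0.01).

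Of 2 homing receptors, 1 rose and 1 did not pass. CXCR6 is the receptor for CXCL16 on tissue-resident and effector T cells. For Cxcr6 the Treg-ablated libraries gave 2.46 and 2.87 CPM and the controls 1.28, 0.851 and 1.11 CPM. Cxcr6 rose 2.49-fold (log2FC 1.31, SE 0.261, adjusted p = 0.00578). S1PR1 guides lymphocytes out of tissue along sphingosine 1-phosphate and is also abundant in endothelium. S1pr1 reached 2.58 and 1.96 CPM in Treg-ablated libraries, with 2.15, 1.502 and 2.30 CPM in controls. The groups overlapped, and S1pr1 did not pass (log2FC 0.24, SE 0.263, adjusted p = 0.541). Its log2 fold change ran from 0.01 to 0.41 when a library was left out. No test was made of whether the 2 genes differed from each other in their response.

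GIMAP proteins are GTPases of the immune system, several of which are needed for lymphocyte survival. All 6 GIMAP genes in the list rose, with a median log2 fold change of 1.51. They lie in a cluster of 123.6 kb on chromosome 6 (48647234 to 48770851, GRCm38). Per kilobase of exon Gimap4 had the highest level of the 6, both in controls and after ablation. Gimap4 was at 10.6 and 11.5 CPM in Treg-ablated replicates 1 and 2 and at 3.63, 4.16 and 4.04 CPM in controls 1, 2 and 3. It rose 2.78-fold (log2FC 1.47, SE 0.135, adjusted p = 0.000149). Gimap6 had 6.30 and 7.84 CPM in the Treg-ablated and 2.22, 2.25 and 1.88 CPM in the control libraries. Gimap6 rose 3.30-fold, the largest change in the cluster (log2FC 1.72, SE 0.182, adjusted p = 0.000324). Both ablated libraries of Gimap6 were clear of the controls. Gimap3 was measured at 6.30 and 5.88 CPM after ablation, and at 2.35, 1.95 and 2.02 CPM in controls. Gimap3 rose 2.90-fold (log2FC 1.54, SE 0.175, adjusted p = 0.000449). For Gimap7 the Treg-ablated libraries gave 2.77 and 2.49 CPM and the controls 0.806, 1.10 and 0.627 CPM. Gimap7 rose 3.02-fold (log2FC 1.59, SE 0.280, adjusted p = 0.00325). In each of these 4 genes every Treg-ablated value was above 2 CPM and more than every control.

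Gimap8 and Gimap5 had fewer counts. Gimap8 reached 1.77 and 2.26 CPM in Treg-ablated libraries, with 1.01, 0.601 and 0.975 CPM in controls. Gimap5 was at 0.820 and 1.43 CPM in Treg-ablated replicates 1 and 2 and at 0.336, 0.451 and 0.488 CPM in controls 1, 2 and 3. The groups did not overlap for either gene. Gimap8 rose (log2FC 1.25, SE 0.3099, adjusted p = 0.0156), as did Gimap5 (log2FC 1.36, SE 0.405, adjusted p = 0.0323). The call of Gimap8 ended without Treg-ablated replicate 2 (adjusted p = 0.0759) or control replicate 2 (adjusted p = 0.0765). That of Gimap5 ended without Treg-ablated replicate 2 (adjusted p = 0.247) and on removal of control replicate 1 (adjusted p = 0.0748) or control replicate 2 (adjusted p = 0.0928). Gimap5 and Gimap7 share 153 and 81 exonic bases with the read-through model Gm28053. GIMAP genes resemble each other in sequence, so reads that match several of them make these values uncertain.

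The neighbourhood of the cluster was measured as well. Within 200 kb on either side, 40 genes were listed and 17 tested. The 8 GIMAP genes tested had a median log2 fold change of 1.42, and 7 of them were higher. The 9 other genes had a median of -0.01, between -0.43 and 0.11, and 0 of them passed in either direction with edgeR or DESeq2 (1 was lower at an unadjusted p under 0.05). Gimap1, a GIMAP gene outside the list, had 1.64 and 1.58 CPM in Treg-ablated and 0.537, 0.952 and 0.697 CPM in control libraries and rose (log2FC 1.10, SE 0.318, adjusted p = 0.0286). Its call ended with DESeq2 (adjusted p = 0.114) and without Treg-ablated replicate 1 (0.103), or 2 (0.0725), or without control 1 (0.0724) or 3 (0.0546). Gimap9 had 2.84 and 2.26 CPM in Treg-ablated and 1.48, 1.80 and 2.02 CPM in control libraries and did not pass (log2FC 0.54, SE 0.238, adjusted p = 0.121). Its value was 0.35 without Treg-ablated replicate 1.

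**Figure D3:**
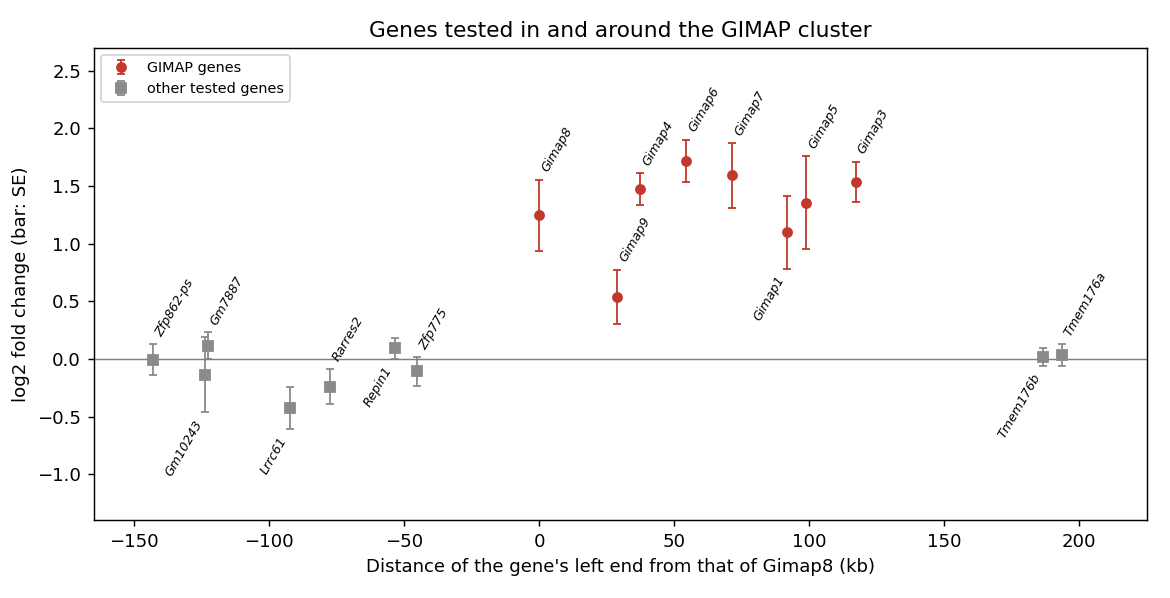
Log2 fold change with its standard error for the 17 genes tested in and around the GIMAP cluster, against the distance in kb from the left end of Gimap8. The 8 GIMAP genes (circles) lie between 0.54 and 1.72, and the 9 other genes (squares) between -0.43 and 0.11.

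Promoter sequence was looked up because many of these genes moved together. RefSeq windows of 300 bases, from 250 before to 50 after a transcript start (GRCm38.p6), were found for 25 of the 39 genes, as 36 windows, since some genes have several starts whose windows can overlap. They were searched on both strands for short core motifs of factor families known in lymphocytes: AGGAAG for the ETS family, TGTGGT for the RUNX family and TTCNNNGAA for STAT proteins. The 4 GIMAP promoters below, with those of Lat, the gene that rose most, and of the cytokine receptor gene Il7r, show how the matches were spread. Each reads 5′ to 3′ along the gene, with matches in capitals.
Gimap3, chr6:48770802-48771101, minus strand: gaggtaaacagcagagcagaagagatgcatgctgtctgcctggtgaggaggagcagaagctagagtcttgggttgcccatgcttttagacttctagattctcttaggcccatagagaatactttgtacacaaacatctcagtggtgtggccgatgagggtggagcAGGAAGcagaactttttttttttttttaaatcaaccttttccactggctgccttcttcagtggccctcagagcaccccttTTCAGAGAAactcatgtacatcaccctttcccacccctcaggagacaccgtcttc
Gimap4, chr6:48684328-48684627, plus strand: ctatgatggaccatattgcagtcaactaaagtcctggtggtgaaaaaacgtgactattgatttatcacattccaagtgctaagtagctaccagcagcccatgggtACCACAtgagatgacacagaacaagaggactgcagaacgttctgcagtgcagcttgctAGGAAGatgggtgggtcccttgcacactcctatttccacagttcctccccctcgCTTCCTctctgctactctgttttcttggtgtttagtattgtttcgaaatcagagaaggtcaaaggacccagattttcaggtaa
Gimap6, chr6:48708195-48708494, minus strand: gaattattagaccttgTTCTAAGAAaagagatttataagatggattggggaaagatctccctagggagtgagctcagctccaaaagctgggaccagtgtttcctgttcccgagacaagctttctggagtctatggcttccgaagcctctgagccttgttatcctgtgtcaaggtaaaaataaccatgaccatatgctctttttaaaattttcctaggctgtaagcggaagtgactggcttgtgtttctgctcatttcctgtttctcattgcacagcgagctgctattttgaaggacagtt
Gimap7, chr6:48718371-48718670, plus strand: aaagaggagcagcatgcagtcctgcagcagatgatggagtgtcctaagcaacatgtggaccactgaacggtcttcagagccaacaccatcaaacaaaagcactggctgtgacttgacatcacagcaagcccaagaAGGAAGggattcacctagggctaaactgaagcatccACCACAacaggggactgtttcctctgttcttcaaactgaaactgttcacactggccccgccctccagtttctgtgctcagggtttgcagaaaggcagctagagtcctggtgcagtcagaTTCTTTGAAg
Lat, chr7:126369519-126369818, minus strand: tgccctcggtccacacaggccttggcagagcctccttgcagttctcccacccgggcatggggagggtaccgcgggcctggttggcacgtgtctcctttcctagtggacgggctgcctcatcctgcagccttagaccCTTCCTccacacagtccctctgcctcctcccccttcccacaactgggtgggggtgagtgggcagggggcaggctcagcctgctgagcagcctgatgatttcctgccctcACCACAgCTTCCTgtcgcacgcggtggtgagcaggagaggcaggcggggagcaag
Il7r, chr15:9529827-9530126, minus strand: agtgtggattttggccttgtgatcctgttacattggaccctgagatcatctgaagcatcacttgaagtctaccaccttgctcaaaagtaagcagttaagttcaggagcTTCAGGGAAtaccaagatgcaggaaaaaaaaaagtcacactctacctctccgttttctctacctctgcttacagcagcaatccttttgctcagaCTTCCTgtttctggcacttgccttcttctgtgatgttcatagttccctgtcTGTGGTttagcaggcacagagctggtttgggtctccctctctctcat

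The window of Gimap4 held 2 ETS matches and 1 RUNX match, that of Lat likewise, and those of Gimap7 and Il7r 1 of each of the 3 kinds. Gimap3 had 1 ETS and 1 STAT match, and Gimap6 had a single STAT match. Over the 36 windows of the listed genes, 50.0% held the ETS core, 27.8% the RUNX core and 22.2% the STAT core. Among all 32851 promoter windows the shares were 35.4%, 16.8% and 8.30%. The ETS and STAT letters can overlap, as they do in a window of Gimap8. For other motifs searched, the shares in listed and in all windows were 25.0% and 25.6% for TGGGAA of the Ikaros family, 11.1% and 7.95% for GGGTGTG of KLF factors, and 2.78% and 3.73% for CTTTGAT of TCF and LEF factors. Such matches describe letters in these windows and do not show binding.

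Levels spread widely among the lymphocyte genes. Per kilobase of exon, Klf2 was the highest, with a mean of 123 CPM per kb in controls, followed by Cd52 (17.6), Coro1a (17.2) and Thy1 (12.2). Of these 4 only Klf2 passed the test. All 4 are also known from other cells of tumours, and whether that bears on their change was not tested. Il2rg (4.41), Rac2 (3.59), Il2rb (3.22) and Gimap4 (2.15) came next and rose. Of the 36 tested, the lowest were Satb1 (0.0416), Txk (0.0521) and Gimap5 (0.102). All of these values are levels per kb in the controls.

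**Figure D4:**
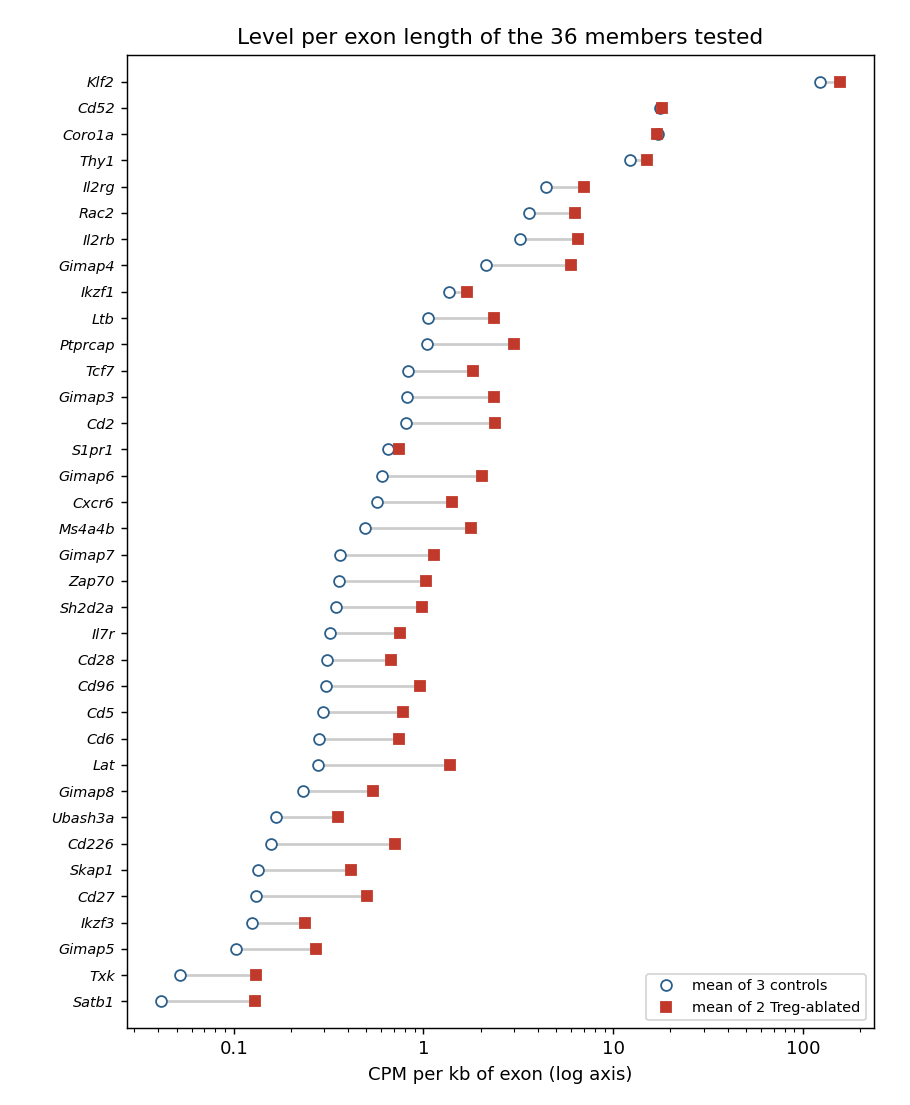
Mean CPM per kb of exon, on a log axis, of the 36 lymphocyte genes tested, ordered by the control level. Open circles are means of the 3 controls and filled squares means of the 2 Treg-ablated libraries. The gap between them is narrow for the 4 highest genes and wider for most genes below them.

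The 2 Treg-ablated libraries did not carry the same amount of each gene. Of the 39, 29 were higher in replicate 2 and 10 in replicate 1, with a median ratio of 1.163. The extremes were Sh2d1a, at 3.59 times in replicate 2, and Cd5, at 1.52 times in replicate 1. Summed over all listed genes except Klf2, whose level outweighs the rest, the values were 256 and 261 CPM in Treg-ablated and 155, 170 and 169 CPM in control libraries. Coro1a, Thy1 and Cd52, which did not pass, hold a large part of these sums. In controls they had 43.2 to 50.8, 18.6 to 23.0 and 19.3 to 22.2 CPM.

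Markers of T and NK cells that are not in the list were mostly higher as well. Of all genes tested, 13.5% were higher and 12.3% lower. The 12 genes of the T cell receptor complex and its co-receptors summed to 42.4 and 47.5 CPM in Treg-ablated and 11.96 to 14.8 CPM in control libraries. Of 10 tested, 9 were higher, with a median log2 fold change of 1.67. Cd247 and Cd4 met the count filter's minimum in fewer than 2 controls, and without them 8 of 8 were higher. The 13 NK cell markers summed to 58.6 and 60.4 against 27.2 to 29.1 CPM, and 9 of 12 tested were higher. The 3 that did not pass were Ncr1 (log2FC 0.27), Klrb1c (0.48) and Xcl1 (0.50), and the groups overlapped in Ncr1 and Klrb1c. Genes of this list need not come from NK cells alone: Eomes is also a factor of cytotoxic T cells. Which cells carried these transcripts was not tested. Klra7 and Eomes met the count filter's minimum in fewer than 2 controls, and without these 2 genes 7 of 10 were higher. The 10 B cell markers summed to 46.7 and 51.4 against 34.8 to 35.8 CPM, and 4 of 6 tested were higher. Of these 6, 3 met the count filter's minimum in fewer than 2 controls, and without them 1 of 3 was higher, Ebf1 (log2FC 0.28). Ebf1 alone had 38.4 and 38.2 CPM in Treg-ablated and 32.0, 31.4 and 31.0 CPM in control libraries, most of each B cell sum. DESeq2 gave an adjusted p to 3 of the 6 and called 0. Ms4a1 was at 0 in all 3 controls, and 6 of the 10 were at 0 in at least 1 library. The 8 plasma cell markers summed to 435 and 400 against 496 to 542 CPM, with 3 higher and 1 lower. Sdc1, which was lower (log2FC -0.42), had 263 and 244 CPM in Treg-ablated and 326, 337 and 353 CPM in control libraries. Xbp1, which did not pass, had 155 and 138 against 161, 167 and 181 CPM. These 2 genes made up most of each sum. The higher genes were Jchain (log2FC 1.04), Mzb1 (2.27) and Irf4 (1.11), and Mzb1 met the count filter's minimum in 0 controls.

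Markers of the sorted and of other cells were measured in the same libraries. The 12 macrophage and gate genes summed to 287 and 251 CPM after ablation and 424 to 449 CPM in controls, and 8 of them were lower (median log2 fold change -0.78). The 9 dendritic cell markers summed to 60.8 and 59.7 against 52.3 to 54.9 CPM, with 1 of 7 tested higher and 1 lower. Over all genes tested the shares were 13.5% higher and 12.3% lower. Of the 12 fibroblast markers 1 was higher and 6 were lower. Their sums were 19271 and 21639 against 20220 to 24060 CPM and overlapped. The 8 neutrophil markers summed to 11.7 and 9.88 against 8.33 to 9.41 CPM, and the 12 endothelial markers to 22.4 and 20.0 against 22.5 to 25.1 CPM. Among 5 lymphatic endothelial markers Prox1 was at 0 in all libraries. The 8 epithelial and tumour markers summed to 313 and 271 against 306 to 331 CPM, with 0 of 5 tested called by edgeR or DESeq2 (1 lower at an unadjusted p under 0.05). The part of these cells in the lymphocyte gene result was not tested.

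**Figure D5:**
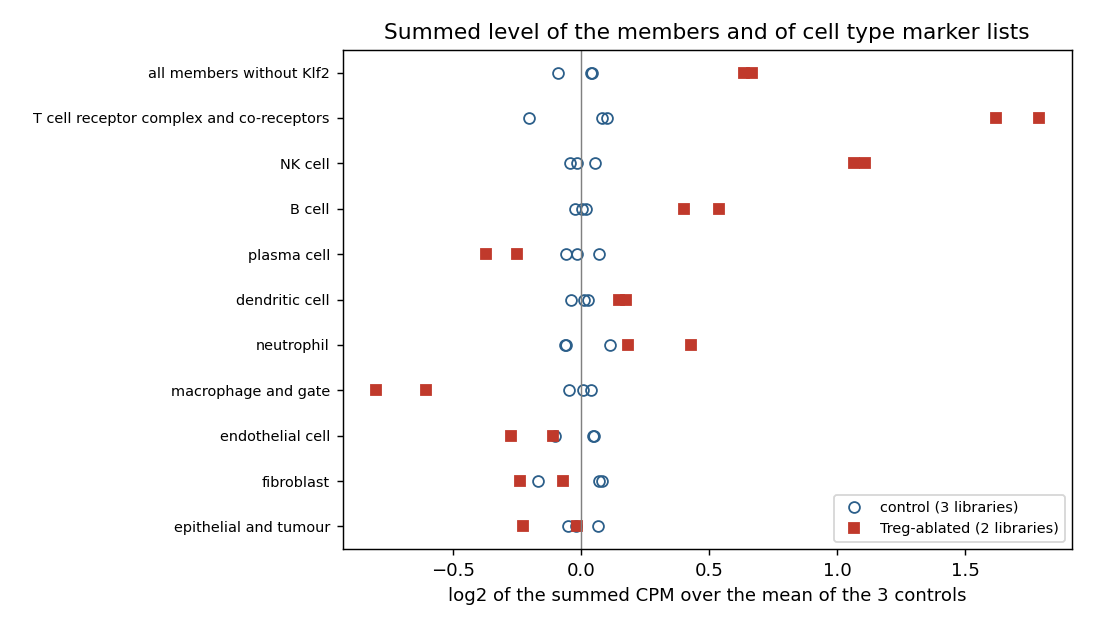
Log2 ratio of the summed CPM of the lymphocyte genes without Klf2, and of each marker list, in each library to the mean of the 3 controls. Filled squares are the 2 Treg-ablated and open circles the 3 control libraries, and the squares lie above all circles for the lymphocyte genes and the T, NK, B, dendritic cell and neutrophil lists. They lie below all circles for the plasma cell, macrophage and gate, and endothelial lists, and overlap them for the fibroblast and the epithelial and tumour lists. The plasma cell sum is mostly Sdc1 and Xbp1, and the B cell sum mostly Ebf1. Coro1a, Thy1 and Cd52, which did not pass, hold a large part of the lymphocyte gene sum.

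Ligands and partners of the surface receptors were read from a separate list. Counts of this list and of those below stand beside 13.5% higher and 12.3% lower over all genes tested. Of 15 listed, 13 were tested, 3 were higher and 1 lower, while 9 did not pass, and the median log2FC was 0.16. Pvr, whose product binds CD96 and CD226, had 106 and 110 CPM in Treg-ablated and 88.6, 89.3 and 91.3 CPM in control libraries (log2FC 0.26, SE 0.0645, adjusted p = 0.0143). Its call ended on removal of Treg-ablated replicate 2 (0.0568) or of control 2 (0.0798). Siglecg, whose product binds CD52, had 1.95 and 2.26 CPM in Treg-ablated and 0.941, 0.901 and 1.18 CPM in control libraries (log2FC 1.07, SE 0.268, adjusted p = 0.0163), and its call ended with DESeq2 (0.0756) and on removal of Treg-ablated replicate 2 (0.0733) or of control 2 (0.0760). Cd48, the CD2 ligand of mice, had 5.93 and 4.30 CPM in Treg-ablated and 3.49, 3.61 and 3.48 CPM in control libraries at an adjusted p of 0.0496, and the call ended without each library in turn except Treg-ablated replicate 2 (adjusted p between 0.0920 and 0.417). It also ended with RLE size factors (0.0516), limma-voom (0.0572), the GC correction (0.1502) and DESeq2 (0.161). Its log2 fold change was 0.54, and 0.28 without Treg-ablated replicate 1. Without control replicate 2, edgeR called 0 ligands higher. Cd72, described as a partner of CD5, fell by 0.96 on the log2 scale (SE 0.217, adjusted p = 0.0103), and without Treg-ablated replicate 1 its adjusted p was 0.0592.

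Several partners did not pass. Alcam, the CD6 ligand, had 103 and 110 CPM in Treg-ablated and 98.0, 87.9 and 90.4 CPM in control libraries (log2FC 0.21, adjusted p = 0.0563), and passed as higher with library size alone (0.0450) and without control replicate 1 (0.0383). The CD28 ligand genes had log2 fold changes of 0.16 for Cd80 (adjusted p = 0.570) and 0.54 for Cd86 (adjusted p = 0.0782). Cd86 passed without Treg-ablated replicate 2 (log2FC 0.79, adjusted p = 0.0208) and when all genes with a count were tested (0.0347), and its value was 0.21 without replicate 1. Cd70, the CD27 ligand, had at most 1 count in any library.

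Other genes of proximal T cell receptor signalling were partly higher. Of 24, 23 were tested, 9 were higher and 3 lower, while 11 did not pass, and the median log2FC was 0.41. Lck, the kinase that starts the cascade, and Themis, a T cell signalling adaptor, both rose. Lck had 9.39 and 8.67 CPM in Treg-ablated and 1.95, 3.41 and 2.72 CPM in control libraries (log2FC 1.72, SE 0.194, adjusted p = 0.000427). Themis had 1.95 and 3.09 CPM in Treg-ablated and 0.470, 0.501 and 0.279 CPM in control libraries (log2FC 2.53, SE 0.355, adjusted p = 0.00118). Both were called higher without each library in turn. Themis met the count filter's minimum in 0 controls, so it was tested only because of its Treg-ablated counts, and its exons share 153 bases with another gene model. Without the 3 genes of the list for which fewer than 2 controls met that minimum, 6 of 20 were higher. The lower genes were Plcg1 and Csk, which many cell types express, and Vav1. Their number was 1 on removal of Treg-ablated replicate 2 or of control 2 and 0 with the GC correction.

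In the common γ chain cytokine axis, 5 of 16 tested genes were higher and 3 lower, while 8 did not pass, and the median log2FC was 0.32. Il2ra, the interleukin-2 receptor α chain of activated and regulatory T cells, had 3.15 and 3.92 CPM in Treg-ablated and 0.873, 1.35 and 1.46 CPM in control libraries (log2FC 1.5, SE 0.255, adjusted p = 0.00279). Il15ra, which presents interleukin-15, had 42.2 and 38.8 CPM in Treg-ablated and 28.9, 27.9 and 31.2 CPM in control libraries (log2FC 0.47, SE 0.0839, adjusted p = 0.00354). Socs1, an inhibitor of cytokine signalling, had 20.6 and 19.4 CPM in Treg-ablated and 10.7, 12.7 and 12.1 CPM in control libraries (log2FC 0.75, SE 0.107, adjusted p = 0.00128). Il15 itself had 6.87 and 6.11 CPM in Treg-ablated and 4.37, 4.46 and 4.46 CPM in control libraries (log2FC 0.56, SE 0.146, adjusted p = 0.0195), and its call ended on removal of Treg-ablated replicate 1 (0.115) or of control 2 (0.0775), and with DESeq2 (0.0907). The number called higher was 3 on removal of Treg-ablated replicate 1 or of control 2 and 8 with the GC correction. The lower calls (Il4ra, Stat5b and Stat6) numbered 0 or 1 without any single library.

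Of the homing axis, 4 of 18 tested genes were higher and 3 lower, while 11 did not pass, and the median log2FC was -0.18. These counts are not far from the 13.5% higher and 12.3% lower over all genes tested. Ccr7, the chemokine receptor of lymph node entry, which dendritic cells also express, rose. Ccr7 had 9.58 and 8.52 CPM in Treg-ablated and 5.44, 5.36 and 6.20 CPM in control libraries (log2FC 0.69, SE 0.136, adjusted p = 0.00578). Sphk2, a kinase that makes sphingosine 1-phosphate, fell by 0.52 on the log2 scale (SE 0.0965, adjusted p = 0.00421). Cxcl16, the ligand of CXCR6, had 9.96 and 7.39 CPM in Treg-ablated and 12.8, 11.0 and 11.2 CPM in control libraries and did not pass (log2FC -0.41, SE 0.146, adjusted p = 0.0590). Leaving out Treg-ablated replicate 1 it passed as lower (log2FC -0.66, adjusted p = 0.0159) and had -0.22 without replicate 2. It also passed as lower when all genes with a count were tested (0.0135). Without control replicate 2, 2 genes of this list were higher and 1 was lower. The lower count was also 1 without Treg-ablated replicate 2 or control replicate 3.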

How the data were processed

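RNA of cells sorted from tumours was sequenced as 5 libraries (2 Treg-ablated, 3 control, grouped by sample title), per the labels with a stranded mRNA kit. The deposited values are whole counts without normalization. Per the file headers, the authors counted exon fragments per gene with featureCounts 1.6.2 on Ensembl 83 gene models (GRCm38, filtered). Their command carries no strand or multi-mapping option, so overlapping or antisense genes and close paralogs have uncertain values. Trimmomatic 0.33, FastQC 0.11.5, Subread 1.6.2 and DESeq2 1.16.1 also appear in the submitters' processing notes.

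From these counts, genes were kept by filterByExpr (minimum count 10) and TMM-scaled. The test was edgeR 4.0.16's quasi-likelihood F test (R 4.3.3) without covariates, with Benjamini-Hochberg adjustment over all 14580 genes and a threshold of 0.05. SEs are log2FC over the root of F. CPM values divide counts by the TMM-scaled library size, times 1e+06. Replicates differed beyond sampling noise (chi-square per degree of freedom 4.16 to 7.67), so none was treated as a duplicate. Other settings tried were size factors by RLE or by library size alone, 2 other count filters, DESeq2 1.42.0, limma-voom (limma 3.58.1), a null of a 1.5-fold change, a block on the replicate number, a lowess offset on GC content, and the removal of each library in turn.

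The 39 genes, their role groups and the other lists were chosen with earlier results of these data known. All 39 are accounted for. Of related lists, genes were named by the smallest p (up to 3) or the highest level per kb (up to 4), with receptor ligands and GIMAP neighbours added after their values were seen. Some genes that this rule picks are not reported here. Promoters are those of RefSeq (GRCm38.p6), matched by symbol.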

Additional observations from a re-analysis of the deposited data

How the results depend on the processing

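The number of listed genes called higher was 25 to 31 under RLE size factors, library size alone, both other count filters, DESeq2, limma-voom, the replicate block and the GC offset, and 22 to 30 when a library was left out. It was 9 against a fold of 1.5. The number called lower was 0 under every one of these alternatives. The median log2 fold change of the tested genes ran from 1.18 to 1.49 without single libraries. Over all genes, 1971 higher and 1787 lower calls became 98 and 23 against a fold of 1.5, 829 to 1682 and 564 to 1539 without single libraries, and 1296 and 1116 with the replicate block. The lowest of these leave-one-out counts were those without control replicate 2. Where a Treg-ablated library was removed, the lone remaining one was taken to vary as the controls do.

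The labels do not say that a replicate number marks a shared animal or day, and the check did not show it. Deviations from the group means of libraries with the same number correlated at -0.574 for number 1 and 0.00663 for number 2, across 10020 genes. Between unlike numbers, Treg-ablated 1 had -0.00663 with control 2 and 0.542 with control 3. Treg-ablated 2 had 0.574 with control 1 and -0.542 with control 3. Deviations of only 2 Treg-ablated libraries mirror each other, so these values are not separate checks and cannot decide on pairing. Replicate numbers are those of the sample titles. The deposited names of the Treg-ablated libraries carry other numbers, 2 and 3, under which the same-number correlations are -0.00663 and -0.542, and a block on those was not fitted. With the replicate number as a block, 30 listed genes were higher, including all 29 and Ubash3a (adjusted p = 0.0467). Of the other genes named, Pvr (adjusted p = 0.0877), Cd48 (0.124) and Il15 (0.0630) did not pass with it and Cxcl16 passed as lower (0.0462).

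The sign changed for only 2 listed genes, neither of which passed in any setting. The log2 fold change of Cd52 ran from -0.15 (without Treg-ablated replicate 1) to 0.19 (without Treg-ablated replicate 2) and was -0.017 without control replicate 1. The log2 fold change of Coro1a was 0.012 with library size alone, 0.019 with the block and 0.14 with the GC offset. Without single libraries it ran from -0.078 (without control replicate 1) to 0.044 (without Treg-ablated replicate 2), and it was 0.038 and 0.013 without control replicates 2 and 3. The cause was not tested. DESeq2 gave no adjusted p for 3 of the listed genes tested, among them Cd27 and Gimap5, which edgeR called higher. The filter of at least 1 CPM in 2 libraries tested 33 of the listed genes. A count of 3 corresponds to between 0.1502 and 0.2263 CPM per library, so differences of the scarcest genes were not detectable at this depth.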

Other observations

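Lists of genes around the same cell biology that the comparison above did not cover are given here as values. Their counts stand beside 13.5% higher and 12.3% lower over all genes tested. Among other lymphocyte transcription factors, 8 of 19 tested were higher and 1 lower, while 10 did not pass, and the median log2 fold change was 0.52. Eomes, a factor of NK and cytotoxic T cells that is also in the NK cell marker list, had 1.70 and 1.73 CPM in Treg-ablated and 0.672, 0.401 and 0.627 CPM in control libraries (log2FC 1.63, SE 0.324, edgeR adjusted p = 0.00584). Id2, a regulator of innate lymphocytes with wide expression, had 29.7 and 29.9 against 21.1, 19.5 and 21.8 CPM (log2FC 0.52, SE 0.0881, adjusted p = 0.00272). Foxp1, which restrains T cell activation and is expressed in many tissues, had 102 and 101 against 77.9, 76.8 and 75.5 CPM (log2FC 0.41, SE 0.0640, adjusted p = 0.00206). These calls held without each library in turn. The count filter's minimum was met in fewer than 2 controls for 4 genes of the list, Eomes among them, and without these 5 of 15 were higher. Over the whole list, the number of higher genes was 3 without control replicate 2, 5 without Treg-ablated replicate 2 and 4 with DESeq2.

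Of 17 relatives and partners of Rac2 and Coro1a, 4 were higher and 1 lower, while 12 did not pass, and the median log2 fold change was 0.01. Coro1c, a widely expressed coronin, fell by 0.48 on the log2 scale (SE 0.0643, adjusted p = 0.000941). Rac1 had 362 and 373 against 298, 293 and 303 CPM (log2FC 0.30, SE 0.0626, adjusted p = 0.00709), and Cdc42 had log2FC 0.34 (SE 0.0702, adjusted p = 0.00671). Without control replicate 2 neither passed (adjusted p = 0.0573 and 0.0570), 0 genes of the list were higher, and with the GC offset Cdc42 had a log2 fold change of 0.21 (adjusted p = 0.0630).

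The lymphotoxin axis list holds receptors and pathway genes downstream of Ltb, and the ligand genes Lta and Tnfsf14. Of 8 tested genes, 0 were higher and 1 was lower with edgeR, as with DESeq2. At an unadjusted p under 0.05, 1 was higher and 3 were lower. The 2 ligand genes were not tested for want of counts. Lta had 11 and 8 counts in Treg-ablated and 3, 3 and 3 in control libraries. Tnfsf14 had 10 and 6 against 5, 8 and 6. Tnfrsf1b, a receptor for tumour necrosis factor, had 10.9 and 11.0 against 16.7, 18.2 and 16.2 CPM (log2FC -0.64, SE 0.107, adjusted p = 0.00263). Ltbr, the lymphotoxin β receptor, did not pass (log2FC -0.20, adjusted p = 0.0727) but passed as lower without control replicate 1 (adjusted p = 0.0365). Tnfrsf14, which binds lymphotoxin-related ligands, had a log2 fold change of 0.40 (adjusted p = 0.0548) and passed as higher without control replicate 2 (adjusted p = 0.0271), with the GC offset (adjusted p = 0.0262), with library size alone (adjusted p = 0.0469) and when all genes with a count were tested (adjusted p = 0.0143).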
